A study of Caenorhabditis elegans with 8 samples.

Results

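Gonads making only sperm were set against gonads making only oocytes, and RNA that came down with the oocyte RNA-binding proteins OMA-1 and LIN-41 was then followed along that axis in the nematode Caenorhabditis elegans. The gonad values belong to another study, were added to the table by the authors, and compare fem-3(q96gf) gonads, which are spermatogenic, with fog-2(q71) gonads, which are oogenic. Of 16031 genes in the authors' deposited table, the 14888 with a gonad log2 fold change were used and 1143 had none. The series itself holds 8 RNA-seq libraries in 6 groups, 4 libraries from each of 2 strains. The OMA-1 strain carried fog-1(q253ts) together with oma-1(zu405te33) and the transgene tnIs17, which holds oma-1p::oma-1::s::tev::gfp and unc-119(+), so that the oma-1 promoter drives GFP-tagged OMA-1. The LIN-41 strain carried fog-1(q253ts) and the allele tn1541 of lin-41, labelled gfp::tev::s::lin-41, with GFP at the gene's own locus. Both strains thus carried fog-1(q253ts), which feminises the germ line at 25 °C, so these whole animals make oocytes and no sperm. Stocks were kept at 15 °C, larvae were plated at 30000 per dish, and young adults were collected after about 48 h of feeding at 25 °C. Each strain gave 2 immunoprecipitates (IPs) made with a mixture of 2 antibodies to GFP, 1 lysate library depleted of ribosomal RNA and 1 undepleted lysate library. No IP from an untagged animal is among the labels. The table gives 1 pooled value per gene for the OMA-1 IPs, the LIN-41 IPs and the depleted lysates of both strains together, and 1 per gonad genotype, so no value below has an SD and each call is the authors' own.

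The hermaphrodite germ line of C. elegans makes sperm first and then switches to oocytes. The switch is set by a cascade in which the fem genes, fog-1 and fog-3 promote the sperm fate, and fog-2 lets hermaphrodites make sperm by holding back tra-2. Gain-of-function fem-3 alleles keep the germ line making sperm, and loss of fog-2 leaves the XX animal with oocytes only. OMA-1 and LIN-41 act in growing oocytes, where each binds mRNAs and controls their translation ahead of the oocyte-to-embryo transition.

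The genes that carry the alleles were measured in both gonads. The fog-2 gene had 34.0 FPKM (fragments per kilobase of transcript, scaled to library size) in fem-3(q96gf) gonads, against 7.1 FPKM in fog-2(q71) gonads. In the authors' deposited table this was a log2 fold change of 2.26 with an adjusted p of 4.09e-48. The fem-3 gene had 26.8 FPKM in fem-3(q96gf) gonads and 51.2 FPKM in fog-2(q71) gonads, a log2 fold change of -0.93 in the authors' deposited table. Each gene was lower in the gonads named for its mutation, and the part of the allele and that of the kind of gonad cannot be told apart. Markers of germ cells in general were the meiotic genes htp-3, him-3 and syp-1 and the P granule genes pgl-1 and glh-1. Their log2 fold changes in the authors' deposited table were -0.07, 0.70, 0.80, -0.70 and 0.84 in that order. None reached 2-fold, but him-3, syp-1, pgl-1 and glh-1 each had an adjusted p below 0.05 there. Read depth per library is unknown, since no counts per library were used, and the precision of a value for a weakly expressed gene cannot be given. The gonad totals were 778430 FPKM in fem-3(q96gf) gonads and 642531 FPKM in fog-2(q71) gonads. Over 5867 genes with a mean gonad signal above 500 reads, the log2 ratio of the 2 gonad FPKM columns and the deposited fold change differed by a median of 8.8e-05. Of 5140 called genes with both FPKM values above 0, however, 31 had an FPKM ratio of the opposite sign.

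The gonads differed widely. Of 14888 genes, 8298 (55.7%) had an adjusted p below 0.05 in the authors' deposited table. Of all measured genes, 2830 (19%) also had at least 2-fold more RNA in fem-3(q96gf) gonads and are called spermatogenic-biased here. Another 2462 genes (16.5%) had at least 2-fold more in fog-2(q71) gonads and are called oogenic-biased, and 9596 genes were in neither class. Without the 2-fold threshold the order of the counts turned, with 4103 genes higher in fem-3(q96gf) and 4195 higher in fog-2(q71). The median deposited log2 fold change over all measured genes was 0.12, and the range ran from -10.85 to 11. In bulk gonads, fewer cells of one kind and less RNA per cell cannot be told apart.

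The classes differed most in their extremes. The deposited table lacks many sperm genes, so counts and shares here cover only the genes it holds. Of 36 genes listed for spermatogenesis and sperm function it holds 18, and of 8 for sperm chromatin 4. It holds all 20 genes listed for the eggshell and oocyte surface. At least 16-fold differences were found for 868 genes higher in fem-3(q96gf) and 492 genes higher in fog-2(q71). At least 256-fold differences were found for 420 and 56 genes in that order. An on-or-off pattern, with at least 10 FPKM in the gonad of one kind and under 1 FPKM in the other, held for 576 spermatogenic-biased and 126 oogenic-biased genes. Spermatogenic-biased genes made up 18.96% of the FPKM total of fem-3(q96gf) gonads, 2.31% of that of fog-2(q71) gonads and 6.58% of that of the lysates. Oogenic-biased genes made up 3.32% in fem-3(q96gf) gonads, 14.9% in fog-2(q71) gonads and 17.2% in the lysates. In both shares the lysates of the feminised animals lay nearer to fog-2(q71) gonads. The median lysate level was 0.80 FPKM for spermatogenic-biased genes and 8.42 FPKM for oogenic-biased genes, and 55.2% and 14.6% of these classes lay below 1 FPKM there. Members just inside the 2-fold threshold were cpn-2 and cpna-1 (deposited log2 fold change 1.00 for both) and cfim-2 and nhr-21 (-1.003 and -1.004). Just outside were unc-93 and col-124 (0.999 for both) and athp-1 and cey-3 (-0.999 for both).

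**Figure D1:**
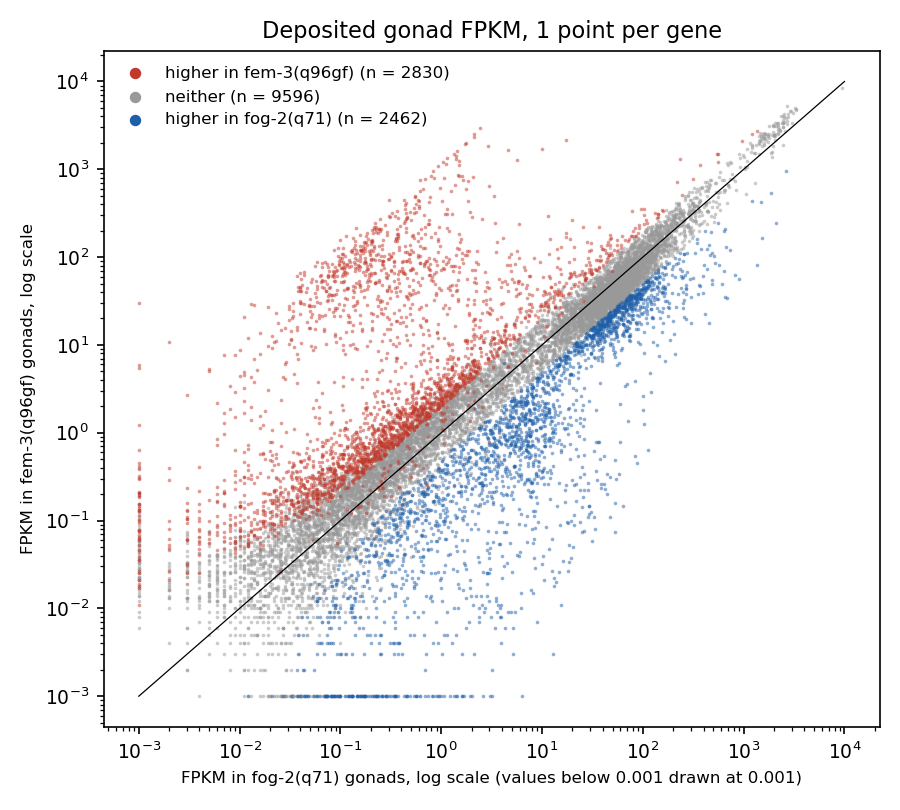
Deposited FPKM of each measured gene in fem-3(q96gf) gonads (vertical, log scale) against fog-2(q71) gonads (horizontal, log scale), with the line of equal levels. The 2830 genes higher in fem-3(q96gf) (red) include a cloud near or above 100 FPKM with almost no RNA in fog-2(q71) gonads, while the 2462 genes higher in fog-2(q71) (blue) have no such cloud. The median level in the gonad where they were higher was 2.30 FPKM for red genes and 7.08 FPKM for blue genes.

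The 10 ranked genes at the spermatogenic end included 5 of the sperm-specific family list and 1 of the sperm chromatin list. Leading the ranked genes with at least 10 FPKM was fbxc-20 (WBGene00018352, chromosome II 2419136 to 2420793 in WBcel235), an F-box family gene. It had 10.7 FPKM in fem-3(q96gf) gonads and 0.002 FPKM in fog-2(q71) gonads, and the authors' deposited table gives a log2 fold change of 10.87 (adjusted p 4.6e-48). The sperm-specific family genes sss-1, ssq-1, ssq-2 and ssq-4 followed with deposited log2 fold changes of 10.11 to 10.19. For sss-1 (IV 9892739 to 9893749) the levels were 1086 FPKM in fem-3(q96gf) gonads and 0.934 FPKM in fog-2(q71) gonads. The sperm chromatin gene spch-1 (IV 10110818 to 10111541) had 1941 FPKM in fem-3(q96gf) gonads, against 1.73 FPKM in fog-2(q71) gonads. The nematode-specific peptide gene nspd-1 had 2329 FPKM in fem-3(q96gf) gonads and 2.12 FPKM in fog-2(q71) gonads. The other ranked genes were acs-10, an acyl-CoA synthetase gene, scl-23, which encodes an SCP-like extracellular protein, and oac-19, an acyltransferase family gene, with log2 fold changes of 10.09 to 10.13 in the authors' deposited table. None of these 10 genes exceeded 0.68 FPKM in the lysates.

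Of 18 measured genes for spermatogenesis and sperm function, 15 were spermatogenic-biased and none was oogenic-biased, against 19% and 16.5% of all measured genes. The median deposited log2 fold change was 5.72 against 0.12 over all genes. The largest values belonged to fer-1, needed to fuse the membranous organelles of sperm (9.42), and spe-26, a kelch-like gene of spermatocytes (9.42). For fer-1 the levels were 59.7 FPKM in fem-3(q96gf) gonads and 0.087 FPKM in fog-2(q71) gonads. The fertilisation gene spe-9, which encodes an EGF-repeat protein of the sperm surface, had 31.4 FPKM in fem-3(q96gf) gonads and 0.146 FPKM in fog-2(q71) gonads. Other members of the list were less extreme, among them some regulators and also spe-29 (4.36) and spe-5 (3.17). In the authors' deposited table spe-44, a transcriptional regulator of sperm genes, had a log2 fold change of 3.07, the GATA factor gene elt-1 had 3.62, and cpb-1, a translational regulator that spermatocytes need, had 1.64. The 3 genes in neither class were wee-1.3 (-0.42), spe-39 (-0.33) and rab-28 (1.78, adjusted p 0.131) in the authors' deposited table. The lists for sperm chromatin (4 of 4 spermatogenic-biased, median 9.65) and the sperm-specific families (7 of 8, median 10.10) stood higher still, the exception being ssp-37 (-0.62, adjusted p 0.499). The major sperm protein gene measured, msp-31, had 2130 FPKM in fem-3(q96gf) gonads and 17.2 FPKM in fog-2(q71) gonads, and genes of that family may share reads with their near-identical copies.

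The ranked genes at the oogenic end were of several kinds. The BTB-domain gene btb-6 (WBGene00018438, II 1715303 to 1716497) had 0.003 FPKM in fem-3(q96gf) gonads and 12.7 FPKM in fog-2(q71) gonads, with a log2 fold change of -10.85 in the authors' deposited table (adjusted p 6.5e-49). Next came sea-1 (II 3671908 to 3673593), a T-box gene known as an autosomal signal element in embryonic sex determination, at 0.027 FPKM in fem-3(q96gf) gonads and 18.2 FPKM in fog-2(q71) gonads. The other ranked genes were skr-7, which encodes an Skp1-related ubiquitin ligase subunit, the homeobox genes ceh-49 and ceh-83, the zinc finger genes ztf-25 and pzf-1, the phosphatase gene cdc-25.3, and rgs-9 and rgs-11, regulators of G protein signalling. Their log2 fold changes lay between -9.34 and -8.40 in the authors' deposited table. Compared with the ranked sperm-specific family and sperm chromatin genes these were modest messages, none of the 10 above 33.4 FPKM in fog-2(q71) gonads. The first ranked spermatogenic gene, fbxc-20, was lower still, at 10.7 FPKM in fem-3(q96gf) gonads.

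Oocyte lists moved as groups, at higher levels. Of 20 eggshell and oocyte surface genes, 17 were oogenic-biased and none was spermatogenic-biased (median deposited log2 fold change -2.49). The shares over all measured genes were 16.5% oogenic-biased and 19% spermatogenic-biased. The chitin-binding eggshell gene cbd-1 had 56.8 FPKM in fem-3(q96gf) gonads and 905 FPKM in fog-2(q71) gonads. The yolk receptor gene rme-2 had 85.8 FPKM in fem-3(q96gf) gonads and 520 FPKM in fog-2(q71) gonads. The caveolin gene cav-1 had the lowest log2 fold change, -6.31, in the authors' deposited table. The permeability barrier genes perm-2, perm-3 and perm-4 were in neither class (0.54, 0.11 and 0.66 in the authors' deposited table), with 826 FPKM of perm-2 in fem-3(q96gf) gonads and 568 FPKM in fog-2(q71) gonads. So within this one list most genes were low in spermatogenic gonads while these 3 were not.

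Of 23 RNA-binding protein genes of oocytes and embryos, 20 were oogenic-biased and none was spermatogenic-biased (median -2.39), against 16.5% and 19% of all measured genes. The germ cell gene nos-2 had 2.62 FPKM in fem-3(q96gf) gonads and 99.5 FPKM in fog-2(q71) gonads, the largest bias of the list at -5.24 in the authors' deposited table. The precipitated proteins and their close relative were members too. In the authors' deposited table the log2 fold change was -1.22 for oma-1, -4.68 for its paralog oma-2 and -3.47 for lin-41. For oma-1 the levels were 109 FPKM in fem-3(q96gf) gonads and 254 FPKM in fog-2(q71) gonads, for oma-2 they were 17.6 FPKM and 453 FPKM in that order, and for lin-41 14 FPKM and 155 FPKM. The paralogs thus differed in how far they were restricted to oogenic gonads. Of 21 maternal polarity and germ plasm genes, 16 were oogenic-biased and none was spermatogenic-biased (median -1.85), with meg-3, meg-1, meg-4 and meg-2, all germ granule genes on the X chromosome, between -7.30 and -4.35 in the authors' deposited table. The partitioning genes par-1, par-2, par-4 and par-5 and the GTPase gene cdc-42 were in neither class.

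**Figure D2:**
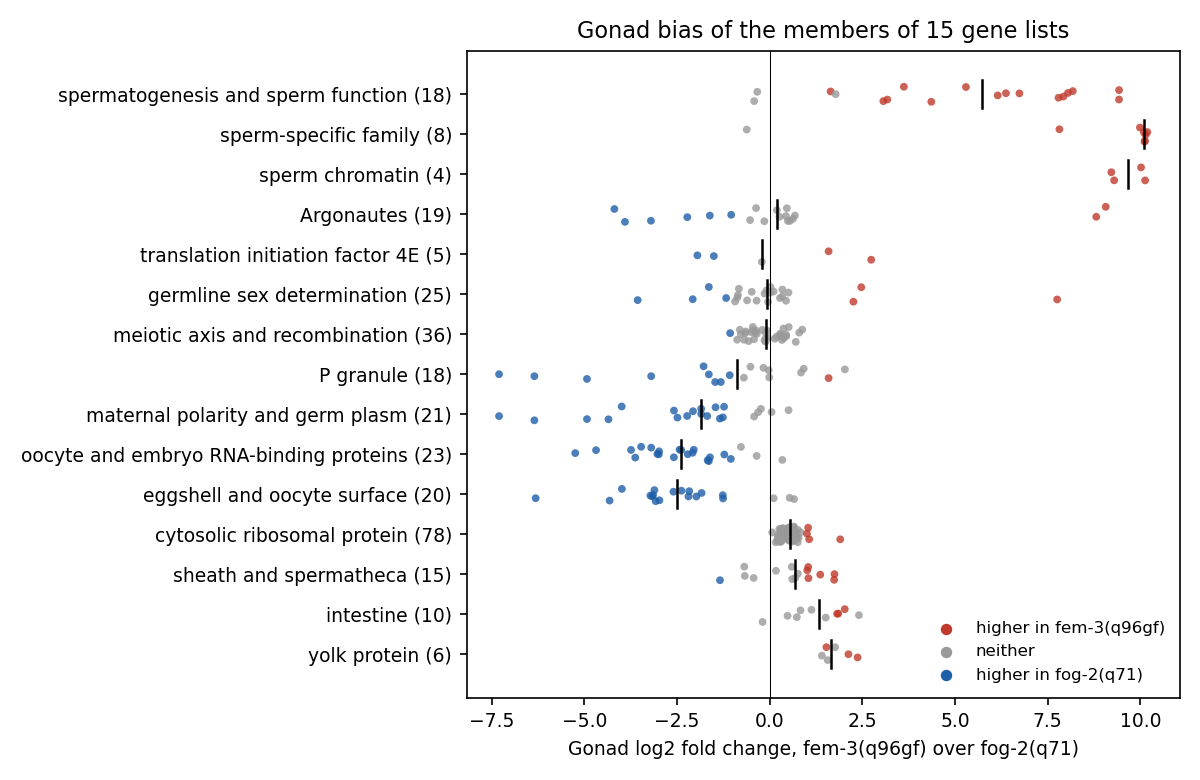
Deposited gonad log2 fold change, fem-3(q96gf) over fog-2(q71), of each member of 15 gene lists (number measured in brackets), with a bar at each median. Red points were at least 2-fold higher in fem-3(q96gf), blue points at least 2-fold higher in fog-2(q71). Sperm lists lie at medians of 5.72 to 10.10, the oocyte lists at -2.49 to -1.85, and meiotic and sex determination genes near 0.

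Most sex determination genes, like most measured genes, were in neither class. Of 25 measured, 3 were spermatogenic-biased, 4 oogenic-biased and 18 in neither class (median -0.08). Over all 14888 measured genes, 9596 were in neither class, 19% were spermatogenic-biased and 16.5% oogenic-biased. The terminal sperm-fate gene fog-3 stood out, with 189 FPKM in fem-3(q96gf) gonads and 0.865 FPKM in fog-2(q71) gonads, a log2 fold change of 7.75 in the authors' deposited table (adjusted p 3.2e-116). Its partner fog-1 had 77.2 FPKM in fem-3(q96gf) gonads and 13.9 FPKM in fog-2(q71) gonads. On the oogenic side were her-1, a ligand gene of male fate (-3.56), tra-2, the membrane protein gene that promotes female fate (-2.08), gld-1, a translational repressor gene (-1.64), and fem-2, a phosphatase gene (-1.17), all in the authors' deposited table. For her-1 the FPKM was only 0.071 in fem-3(q96gf) gonads and 0.823 in fog-2(q71) gonads. The global regulator tra-1 had a deposited log2 fold change of -0.14 (adjusted p 0.704).

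Among small RNA and translation factors, some paralogs lay on opposite sides. Of 19 Argonaute genes, which encode the small RNA-binding proteins of silencing complexes, alg-3 and alg-4 were spermatogenic-biased and 6 were oogenic-biased. The shares over all measured genes were 19% spermatogenic-biased and 16.5% oogenic-biased. The alg-3 gene, known for sperm-specific small RNAs, had 266 FPKM in fem-3(q96gf) gonads and 0.496 FPKM in fog-2(q71) gonads, and alg-4 had 303 FPKM and 0.678 FPKM in that order. The microRNA Argonaute genes alg-1 and alg-2 lay on the other side, with log2 fold changes of -2.22 and -4.19 in the authors' deposited table, as did nrde-3 (-3.90), a nuclear silencing gene, and ergo-1 (-3.20), the Argonaute of oocyte and embryo 26G RNAs. The piRNA Argonaute prg-1 (0.63) and csr-1 (0.46) were in neither class in the authors' deposited table. Of 5 genes for the cap-binding factor eIF4E, ife-1 (1.59) and ife-5 (2.74) were spermatogenic-biased and ife-4 (-1.95) and ife-2 (-1.51) oogenic-biased in the authors' deposited table. With 5 genes, that list is too short to set against the shares over all genes. The ife-1 message reached 1118 FPKM in fem-3(q96gf) gonads, against 371 FPKM in fog-2(q71) gonads.

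Meiotic and ribosomal protein genes differed less than P granule and histone genes. Of 36 meiotic axis and recombination genes 35 were in neither class, and the exception was xnd-1 at -1.07 in the authors' deposited table, which encodes a chromatin factor for crossover placement. All 78 ribosomal protein genes had a log2 fold change above 0 in the authors' deposited table (0.07 to 1.90, median 0.55), though only 4 reached the 2-fold class, among them rpl-11.2 (1.90). The deposited scaling of the gonad columns could not be checked against counts, and the median of all genes was 0.12. Over all measured genes 19% were spermatogenic-biased and 16.5% oogenic-biased. Of 18 P granule genes, 9 were oogenic-biased and 1, ife-1, was spermatogenic-biased. Of 38 histone genes, 15 were oogenic-biased and 3 spermatogenic-biased, but his-8, at the oogenic end, had 0.026 FPKM in fem-3(q96gf) gonads and 0.927 FPKM in fog-2(q71) gonads, and near-identical histone copies may share reads. The histone genes his-73 (3.94), his-69 (3.19) and his-47 (1.58) were the spermatogenic-biased ones in the authors' deposited table.

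Markers of somatic cells were measurable in both gonads. Of 15 sheath and spermatheca genes, 6 were spermatogenic-biased and 1, inx-22, was oogenic-biased, and the summed level was 465 FPKM in fem-3(q96gf) gonads and 401 FPKM in fog-2(q71) gonads. The gap junction gene inx-8 had 159 FPKM in fem-3(q96gf) gonads and 47.4 FPKM in fog-2(q71) gonads. Of 6 yolk protein genes, made in the intestine, 3 were spermatogenic-biased, and the sum was 351 FPKM in fem-3(q96gf) gonads and 118 FPKM in fog-2(q71) gonads. For intestine markers the counts were 3 spermatogenic-biased of 10 (sums 311 FPKM in fem-3(q96gf) and 148 FPKM in fog-2(q71)), for neuron markers 3 of 9 with 1 oogenic-biased (84.4 and 170 FPKM), for hypodermis 3 of 8 with 1 oogenic-biased (213 and 128 FPKM) and for muscle 0 of 9 (354 and 217 FPKM). The lists are short, but in each of them except muscle the spermatogenic-biased share was above the 19% over all genes. The neuron sum ran the other way from the other sums. Both markers of the male somatic gonad, try-5 and swm-1, were spermatogenic-biased at 0.201 and 1.62 FPKM in fem-3(q96gf) gonads and 0.042 and 1.29 FPKM in fog-2(q71) gonads. No member of these lists was at 0 in either gonad, and the part of somatic RNA in the calls was not tested. Calls at such low levels need care: rol-6 was called 2.73 higher in fem-3(q96gf) in the authors' deposited table, yet its FPKM was 0.064 in fem-3(q96gf) gonads and 0.215 in fog-2(q71) gonads.

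Among the genes in the deposited table, which lacks many sperm genes, gonad bias differed by chromosome. Of 2072 X-linked genes with a gonad value, 15.8% were spermatogenic-biased and 30.5% oogenic-biased, against 19.5% and 14.3% of 12700 genes on the 5 autosomes. The strongest biases differed more: 9 X-linked genes (0.434%) were at least 16-fold higher in fem-3(q96gf), against 855 autosomal genes (6.73%). In the other direction 155 X-linked genes (7.48%) and 333 autosomal genes (2.62%) were at least 16-fold higher in fog-2(q71). Among autosomes chromosome II had the largest share of strongly oogenic genes, 125 genes or 4.76%, and chromosome III the smallest, 1.14%. Among the 9 X-linked genes, 5 had under 1 FPKM in fem-3(q96gf) gonads, namely vap-1, osm-5, col-176, F41E7.6 and dpy-7. The 4 others were Y26E6A.3 (X 13908371 to 13909950), with 116 FPKM in fem-3(q96gf) gonads and 2.27 FPKM in fog-2(q71) gonads, the noncoding RNA gene F22H10.10 (55.3 and 1.48 FPKM in that order), K08H2.5 (8.70 and 0.053 FPKM) and F41G4.8 (4.07 and 0.232 FPKM). They are named because they are so few and were picked after their values were seen.

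**Figure D3:**
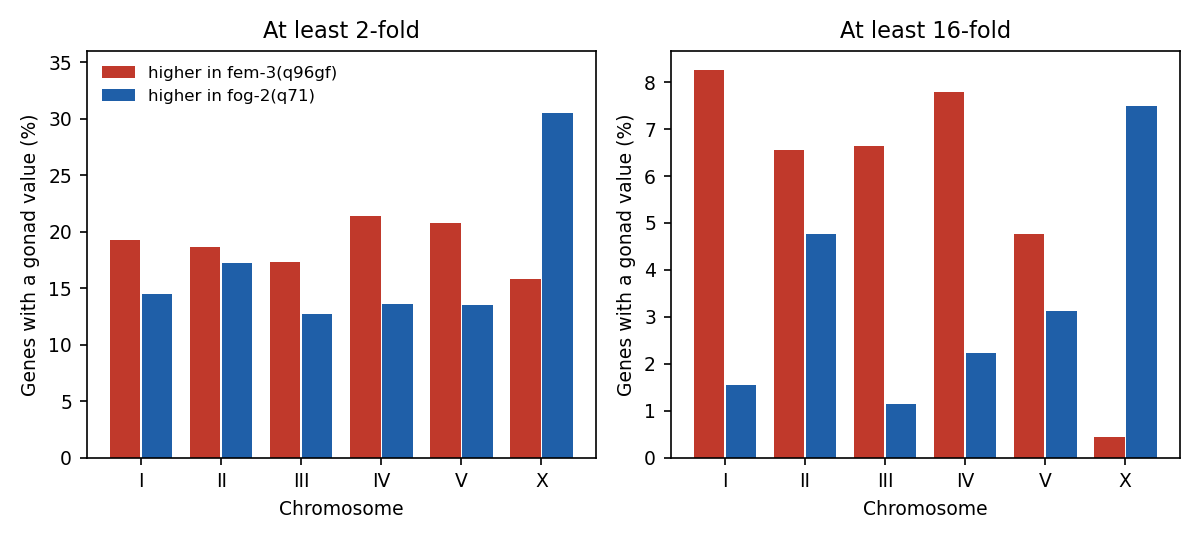
Share of genes with a gonad value on each chromosome that were at least 2-fold (left) or at least 16-fold (right) higher in fem-3(q96gf) (red) or fog-2(q71) gonads (blue), with an adjusted p below 0.05. On X, 30.5% were oogenic-biased and 0.434% were at least 16-fold higher in fem-3(q96gf), the lowest red bar of the right panel.

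A larger share of oogenic-biased than of spermatogenic-biased genes was called in the IPs of OMA-1 and LIN-41. In the authors' deposited table, where a call means an adjusted p below 0.05 for more RNA in the IPs than in the depleted lysates, OMA-1 called 28.4% of all 15742 genes tested and 30.0% of the 14724 tested genes with a gonad value. By class these were 350 of 2758 spermatogenic-biased genes (12.7%), 2773 of 9505 genes in neither class (29.2%) and 1288 of 2461 oogenic-biased genes (52.3%). For LIN-41 the table calls 27.2% of 13955 genes tested and 28% of 13501 with a gonad value. Its calls were 180 of 2277 spermatogenic-biased genes (7.91%), 2305 of 8792 in neither class (26.2%) and 1301 of 2432 oogenic-biased genes (53.5%). Spermatogenic-biased genes lay below the background in both IPs and oogenic-biased genes above it, although genes in neither class supplied most of the calls. Both IPs called 149 of the 2277 spermatogenic-biased genes tested in both (6.54%) and 1060 of the 2432 oogenic-biased ones (43.6%), but the IPs share their lysates, so these overlaps are a description only.

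The share of calls varied with the size of the bias on one side. Among spermatogenic-biased genes OMA-1 called 18.1% at 2- to 4-fold, 10.5% at 4- to 16-fold and 7.0% at 16-fold or more, and LIN-41 called 9.76%, 7.56% and 4.40% in the same order. These are shares of tested genes, and the genes tested differed between the IPs. Of 1180, 782 and 868 genes in those groups, 1174, 770 and 814 were tested for OMA-1 but 1106, 648 and 523 for LIN-41. Among oogenic-biased genes the OMA-1 shares were 54.3%, 48.0% and 56.1%, and the LIN-41 shares 56.3%, 48.2% and 57.1%. So the share of calls declined with the size of the sperm bias and had no such order with the size of the oocyte bias. The median lysate level moved with these groups, at 1.96, 0.795 and 0.26 FPKM for the 3 spermatogenic groups and 22.2, 5.29 and 4.23 FPKM for the 3 oogenic groups. Genes of like lysate level were therefore compared next.

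Within bins of lysate level the classes stayed apart in both IPs. The 14476 genes with an FPKM above 0 in both IPs and the lysates were cut into 10 bins by lysate FPKM (412 genes were left out, 152 of them spermatogenic-biased). The median log2 ratio of IP FPKM to lysate FPKM was lower for spermatogenic-biased than for oogenic-biased genes in 10 of 10 bins for OMA-1 and in 10 of 10 for LIN-41. Averaged over bins, the spermatogenic minus oogenic difference was -1.40 for OMA-1 (bins from -1.87 to -0.89) and -1.31 for LIN-41 (bins from -2.16 to -0.84). Without bins the OMA-1 medians were -0.49 for spermatogenic-biased, -0.17 for other and 0.76 for oogenic-biased genes, and the LIN-41 medians -0.36, -0.13 and 0.76.

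Single bins show how the axis runs. In the lowest, from 0.01 to 0.25 FPKM in the lysates, the OMA-1 median was 0.07 over 573 spermatogenic-biased genes, 0.38 in neither class and 1.00 over 79 oogenic-biased genes. In the sixth bin, from 4.48 to 10.2 FPKM, the OMA-1 medians were -1.05 over 236 genes, -0.35 and 0.82 over 426 genes in that order. In the highest, above 54.7 FPKM, they were -1.06 over 65 genes, -0.31 and 0.68 over 289 genes. LIN-41 medians in the highest bin were -1.15, -0.26 and 1.01. Genes in neither class thus lay close to the spermatogenic-biased ones in bins 2 to 5 and between the classes from bin 6 up. The spread within a class was wide: in the sixth bin the middle 50% of spermatogenic-biased genes ran from -1.75 to 0.40 with OMA-1 and that of oogenic-biased genes from -0.35 to 2.52. The middle 50% of the classes overlapped in each bin with OMA-1 and in each bin but the highest with LIN-41.

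**Figure D4:**
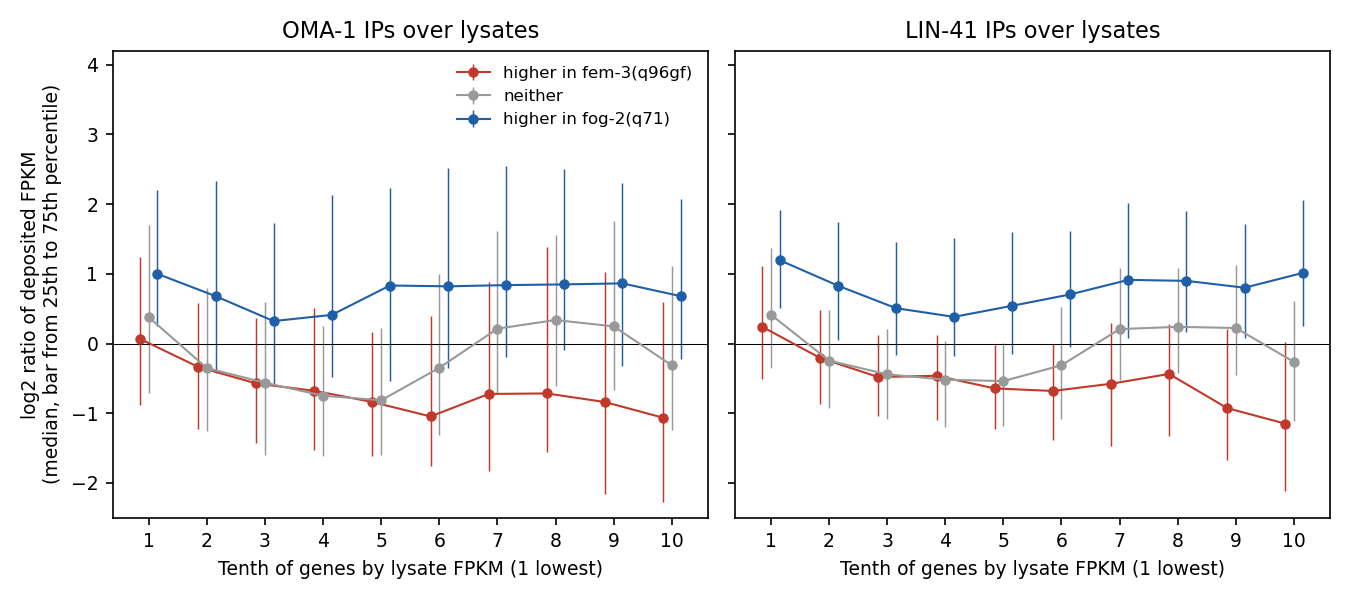
Median log2 ratio of IP to lysate FPKM (points, with bars from the 25th to the 75th percentile of genes) in 10 bins of lysate FPKM, for genes higher in fem-3(q96gf) (red), in neither class (grey) and higher in fog-2(q71) (blue). Red lies below blue in 10 of 10 bins for OMA-1 (left) and LIN-41 (right), and the red and blue bars overlap except in the highest LIN-41 bin.

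At matched lysate level, both IPs called a smaller share of spermatogenic-biased than of oogenic-biased genes in each bin. Genes in neither class did not always lie clearly between them. In the fourth bin OMA-1 called 16.1% of spermatogenic-biased genes and 12.8% of genes in neither class, and in the fifth 15.5% and 16.6%. LIN-41 called 6.38% and 6.88% of these classes in the fourth bin, and 9.35% and 9.99% in the fifth. In the sixth bin OMA-1 called 19.9% of spermatogenic-biased and 57.2% of oogenic-biased genes, and LIN-41 called 11.4% and 55.5% in that order. In the highest bin the OMA-1 shares were 32.3% and 61.9%, and the LIN-41 shares 10.8% and 74.0%. Across genes within a bin, Spearman's rho between the gonad log2 fold change and the log2 ratio lay between -0.39 and -0.14 for OMA-1 and between -0.55 and -0.15 for LIN-41, over 1437 to 1463 genes a bin that share the same pooled libraries. The relation was weakest in the lowest bin for each IP.

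The fold axis was then cut finer within 3 equal-sized groups of lysate level. In the highest group, above 17.2 FPKM, the OMA-1 median was -1.39 for 41 genes 4- to 16-fold higher in fem-3(q96gf), -0.16 for 1563 genes up to 2-fold higher there, 0.39 for 2117 genes up to 2-fold higher in fog-2(q71), and 1.25 for 83 genes over 16-fold higher in fog-2(q71). LIN-41 medians for those groups were -1.31, -0.21, 0.36 and 1.96. In the lowest group, up to 1.31 FPKM, the 679 genes over 16-fold higher in fem-3(q96gf) had an OMA-1 median of -0.17 and a LIN-41 median of 0.01, above the genes 4- to 16-fold higher there (-0.50 and -0.39). The order along the axis therefore turned at its spermatogenic end in the lowest group. Genes at 0 FPKM in an IP, such as ssq-2 and spch-1, had been left out, and their effect on these medians was not tested. The middle group turned there as well, with OMA-1 medians of -0.78, -0.86 and -1.13 for genes over 16-fold, 4- to 16-fold and 2- to 4-fold higher in fem-3(q96gf).

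**Figure D5:**
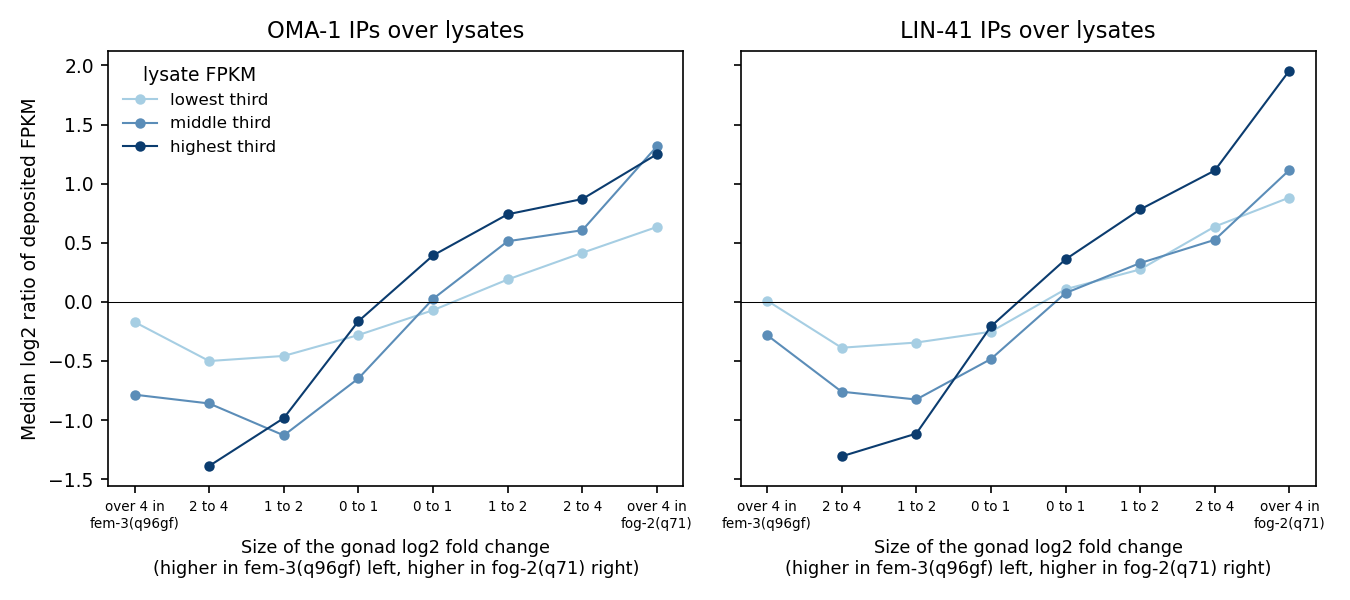
Median log2 ratio of IP to lysate FPKM by size and direction of the gonad log2 fold change, from genes over 4 higher in fem-3(q96gf) at the left to genes over 4 higher in fog-2(q71) at the right, in 3 equal-sized groups of lysate FPKM (points under 10 genes not drawn). In the highest group the OMA-1 median runs from -1.39 to 1.25 and the LIN-41 median from -1.31 to 1.96.

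The size of the difference depended on how levels were matched. With bins on the mean log2 FPKM of IPs and lysates it was -0.59 for OMA-1 and -0.86 for LIN-41, and with bins on the table's mean signal over libraries it was -0.76 and -0.87, in place of -1.40 and -1.31. The level in fog-2(q71) gonads relative to the lysates moved with the classes: in the sixth bin its median log2 ratio was -2.11 for spermatogenic-biased and -0.20 for oogenic-biased genes. With each bin split further by that ratio, an alternative chosen after the data were seen, the OMA-1 difference was -1.07 and the LIN-41 difference -0.88. The zero point of these ratios depends on how the authors scaled the columns, since setting the totals equal moves the OMA-1 values by -1.34 and the LIN-41 values by -0.96 and turns the oogenic-biased medians negative, to -0.58 and -0.20. The differences between classes cannot change under that scaling, which adds the same amount to every log2 ratio of an IP.

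No steady difference between OMA-1 and LIN-41 was found along the gonad axis. The OMA-1 to LIN-41 FPKM ratio differed between spermatogenic-biased and oogenic-biased genes by -0.05 on average over bins, with single bins from -0.33 to 0.52 and 7 of 10 below 0. Its sign turned with 3 other settings, being 0.21 with bins on mean log2 FPKM, 0.09 with bins on mean signal and 0.03 with quantile normalization. No direction is therefore given for it, and this does not show that the IPs were alike. On X, spermatogenic-biased genes had an OMA-1 median of -0.96 and a LIN-41 median of -0.70 over 317 genes, and oogenic-biased genes 0.61 and 0.68 over 628 genes. On the autosomes the OMA-1 and LIN-41 medians were -0.44 and -0.31 for spermatogenic-biased and 0.84 and 0.80 for oogenic-biased genes. The class difference was thus present on the X and on the autosomes.

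By list, calls were frequent among oocyte genes and also among meiotic genes with little gonad bias. OMA-1 called 22 of 23 oocyte and embryo RNA-binding protein genes and LIN-41 called 22, and the median log2 ratio in the authors' deposited table was 2.60 with OMA-1, against a LIN-41 median of 1.85. The eggshell list had 15 of 20 called by OMA-1 and 16 by LIN-41, the polarity and germ plasm list 13 and 18 of 21. Of the 36 meiotic axis and recombination genes, 35 of them in neither gonad class, OMA-1 called 28 and LIN-41 called 24, with median log2 ratios of 0.68 (OMA-1) and 0.78 (LIN-41) in the authors' deposited table. Against the 30.0% (OMA-1) and 28% (LIN-41) of all tested genes with a gonad value, these 4 lists thus had more calls whether or not their genes were biased between gonads. Some oogenic-biased genes were not called by OMA-1 in the authors' deposited table. These included meg-3 (log2 ratio -0.13), meg-4 (-0.79) and the meiotic spindle genes mei-1 (-1.003) and mei-2 (-0.60), all called by LIN-41 (1.97, 0.52, 0.68 and 1.11). The eggshell gene cpg-3, at -4.32 on the gonad axis, was called by neither, and the authors' deposited table gives it 0.12 for the OMA-1 and -0.08 for the LIN-41 log2 ratio.

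Most sex determination genes were called, 20 of 25 by OMA-1 and 18 by LIN-41, in each of the gonad classes. The sperm-fate gene fog-3 had 3.27 FPKM in the lysates, and the authors' deposited table gives log2 ratios of 1.18 for OMA-1 (adjusted p 0.000794) and 2.90 for LIN-41 (9.4e-19). The her-1 gene had an OMA-1 log2 ratio of 1.90 and a LIN-41 one of 5.14, and tra-2 had 4.58 and 2.30 in that order, by the authors' deposited table. The fog-2 message was called by neither (-0.74 and -0.76). Of the list for spermatogenesis and sperm function 4 of 18 were called by OMA-1 and 5 of 16 by LIN-41, near the 30.0% and 28% of all genes with a gonad value. The authors' deposited table calls cpb-1, spe-44, spe-5 and elt-1 with both and spe-39 with LIN-41 alone. For cpb-1 the levels were 184 FPKM in the OMA-1 IPs, 143 FPKM in the LIN-41 IPs and 20.9 FPKM in the lysates. The sperm chromatin genes and the sperm-specific families had no call at an adjusted p below 0.05, 0 of 12 for OMA-1 and 0 of 5 tested for LIN-41, and all had 2.29 FPKM or less in the lysates.

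The ranked oogenic genes were not all alike in the IPs. The log2 ratio for OMA-1 in the authors' deposited table was 5.68 for sea-1, 5.73 for ztf-25, 5.13 for cdc-25.3, 4.61 for ceh-83, 3.27 for ceh-49 and 2.03 for pzf-1. Both btb-6 (-1.05) and skr-7 (-1.49) had OMA-1 log2 ratios below 0 in the authors' deposited table, and rgs-9 and rgs-11 were called by LIN-41 only (1.83 and 0.73). In levels, sea-1 had 855 FPKM in the OMA-1 IPs, 146 FPKM in the LIN-41 IPs and 16.6 FPKM in the lysates, while btb-6 had 3.87, 5.73 and 8.08 FPKM in that order. Gonad biases of like size thus went with either result. Among oogenic-biased genes with at least 5 FPKM in the lysates, the highest ratios for OMA-1 were those of sygl-1, ing-3, num-1, ztf-22 and rnp-1, and for LIN-41 those of orc-1, spn-4, cdc-25.3, impt-1 and laat-1. The largest excess of OMA-1 over LIN-41 was found for picc-1, lin-26 and tsp-12, and the largest excess of LIN-41 over OMA-1 for spn-4, orc-1 and trcs-1. The epidermal regulator gene lin-26 had 825 FPKM in the OMA-1 IPs, 46.5 FPKM in the LIN-41 IPs and 51.3 FPKM in the lysates. The lowest ratios of this class with either IP belonged to the histone genes his-18, his-17 and his-5, all under 1 FPKM in both gonads.

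Spermatogenic-biased genes called in the IPs had a smaller bias and a higher lysate level than those not called. The 350 genes called by OMA-1 had a median gonad log2 fold change of 1.73 and a median lysate level of 2.46 FPKM, against 2.41 and 0.74 FPKM for the 2408 tested genes that were not called. For LIN-41 the medians were 1.73 and 4.16 FPKM over 180 called genes, against 2.06 and 1.13 FPKM over 2097 genes not called. The highest OMA-1 ratio at 5 or more lysate FPKM was that of exl-1, a chloride channel-like gene (II 14412202 to 14413475), with 218.0 FPKM in fem-3(q96gf) gonads and 36.5 FPKM in fog-2(q71) gonads. It had 570 FPKM in the OMA-1 IPs, 43.8 FPKM in the LIN-41 IPs and 20.3 FPKM in the lysates, and a log2 ratio of 4.80 for OMA-1 in the authors' deposited table. The endoplasmic reticulum chaperone gene hsp-4 (3.77) and anmt-2 (3.30) came next among nuclear genes in the authors' deposited table.

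Ranked by LIN-41, the highest were cpb-1, snpc-1.3, sams-4, nep-1 and ent-2. The snpc-1.3 gene, known for transcription of male piRNAs, had 50.5 FPKM in fem-3(q96gf) gonads and 2.22 FPKM in fog-2(q71) gonads. Its log2 ratio was 2.50 for LIN-41 (adjusted p 1.4e-20) and -0.19 for OMA-1 in the authors' deposited table. The cystathionine gamma-lyase gene cth-2 had 24.3 FPKM in the OMA-1 IPs, 270.3 FPKM in the LIN-41 IPs and 63.7 FPKM in the lysates. Both genes were at least 16-fold higher in fem-3(q96gf) gonads and were called by LIN-41 alone. In the other direction anmt-2, exl-1 and hex-1, a hexosaminidase gene, had the largest excess of OMA-1 over LIN-41 in this class. The lowest ratios were those of pud-3, pud-4 and swm-1 for OMA-1 and of spp-14, rps-28 and rpl-39 for LIN-41. In fem-3(q96gf) gonads, where they were higher, pud-3, pud-4 and swm-1 had only 0.762, 0.465 and 1.62 FPKM. In the lysates they had 48.8, 33.5 and 7.11 FPKM in that order.

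Genes of the mitochondrial genome formed a group of their own. Of the 12 measured, 6 were spermatogenic-biased and none oogenic-biased, with gonad log2 fold changes of 0.56 to 1.52 (median 0.96) in the authors' deposited table. Among all measured genes 19% and 16.5% were in those classes. All 12 were called by OMA-1 and 8 by LIN-41 in the authors' deposited table, against 30.0% and 28% of all tested genes with a gonad value. The 6 spermatogenic-biased ones thus went against the class order for OMA-1. LIN-41 called only nduo-4 and nduo-5 of these 6. The respiratory chain gene nduo-4 had 298 FPKM in fem-3(q96gf) gonads and 103 FPKM in fog-2(q71) gonads, and 1559 FPKM in the OMA-1 IPs, 267 FPKM in the LIN-41 IPs and 144 FPKM in the lysates. Ribosomal protein genes, with gonad log2 fold changes of like sign, had median log2 ratios of -2.82 (OMA-1) and -2.38 (LIN-41) by the authors' deposited table, and 2 of 78 were called by OMA-1 and 0 by LIN-41 at an adjusted p below 0.05.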

How the data were processed

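The authors' deposited table holds, per the file headers, FPKM values pooled over depleted lysates, OMA-1 IPs and LIN-41 IPs, log2 ratios of each IP to the lysates with adjusted p-values, and baseMean, a mean signal over libraries. Its gonad columns, deposited by the authors from another study, hold FPKM, a log2 fold change, an adjusted p-value and baseMean. Tools listed without roles in the submitters' processing notes were DESeq2 1.12.3, STAR 2.4.2a, Trimmomatic 0.32 and SAMtools 1.0, with WBcel235 as a build. How reads were counted, on which strand, and how the gonad reads were processed was not given in the sources used here. Genes that overlap or have near-identical copies are therefore uncertain. No column held 1 library, so no test of the spread between libraries was run and the planned edgeR and limma fits were not made. The labels do not say whether IPs of a kind came from separate cultures, and the strain names rise by 1 from sample to sample within a genotype. The 2 columns from an earlier OMA-1 study were not used.

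Spermatogenic-biased and oogenic-biased genes had an adjusted p below 0.05 and at least 2-fold difference. Log2 ratios of FPKM used no pseudocount. Bins were 10 equal-sized groups by lysate FPKM, and only bins with 10 or more genes of each class were averaged. The binned difference was tested on simulated data with known shifts. Gene positions came from the Ensembl annotation of WBcel235, which held 14784 of 14888 IDs. Named genes had a gene name and were the 10 with the largest fold change in each direction at 10 or more FPKM in the higher gonad, the 5 highest and 3 lowest of each class by IP ratio and the 3 at each end of the OMA-1 to LIN-41 ratio at 5 or more lysate FPKM, list members, and genes next to the 2-fold threshold. Members and lists were chosen with earlier results of these data known. Python 3.11.15, pandas 2.3.3, numpy 2.4.6, scipy 1.17.1 and matplotlib 3.10.9 were used.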

Additional observations from a re-analysis of the deposited data

How the results depend on the processing

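No paired analysis was possible because the table holds pooled columns only, and for the same reason leaving out each replicate, DESeq2 and other normalizations of counts could not be run. Without a fold threshold 4103 genes were spermatogenic-biased and 4195 oogenic-biased, which turns the order of the main counts, with a 4-fold threshold 1650 were spermatogenic-biased and 1399 oogenic-biased, and at a lysate FPKM of at least 1 there were 1267 spermatogenic-biased and 2103 oogenic-biased genes, which also turns it. The class difference within bins kept its sign for both IPs in all alternatives run. For OMA-1, LIN-41 and their ratio in that order, it was -1.03, -0.99 and -0.0035 with a pseudocount of 1 FPKM, -1.31, -1.24 and -0.033 with 0.1, -1.37, -1.34 and -0.042 with 20 bins, -1.24, -1.12 and -0.078 without bins, -1.57, -1.47 and -0.030 at a lysate FPKM of at least 1, -1.54, -1.58 and -0.026 at a baseMean of at least 100, -1.34, -1.25 and -0.039 with the deposited log2 ratios, -1.49, -1.45 and -0.077 with 4-fold classes, -1.31, -1.22 and -0.024 at a gonad adjusted p below 0.01, and -1.42, -1.32 and -0.039 without multigene families. With 5 bins the OMA-1 value was -1.41 and the LIN-41 value -1.32. Quantile normalization gave -1.301, -1.296 and 0.027, bins on mean log2 FPKM -0.59, -0.86 and 0.21, and bins on baseMean -0.76, -0.87 and 0.088, so the ratio reversed in these 3, and the cause was not tested. Alternatives added after the data were seen gave -1.07, -0.88 and -0.15 with bins also split by the fog-2(q71) level over lysate, and -1.44, -1.29 and -0.12 without X-linked genes. Equal totals add the same amount to every log2 ratio of an IP, so the class differences could not move and this setting is no check of them. The share of calls among spermatogenic-biased and oogenic-biased genes was 10.8% and 49.4% for OMA-1 and 6.41% and 49.4% for LIN-41 at an adjusted p below 0.01, 11.2% and 42.9%, and 5.93% and 40.3%, with 2-fold enrichment added, 19.7% and 56.5%, and 11.1% and 57.8%, at a lysate FPKM of at least 1. With 4-fold classes it was 8.71% for OMA-1 and 6.15% for LIN-41 among spermatogenic-biased genes, and 51.4% for LIN-41 among oogenic-biased genes. Depth limits what can be said of the 1563 spermatogenic-biased genes below 1 lysate FPKM.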

Other observations

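Gene families by name, picked after their values were seen from 159 families with at least 8 measured members, also leaned to one side. Over all measured genes, 19% were spermatogenic-biased and 16.5% oogenic-biased. Of 13 autophagy genes of the atg family, 11 were oogenic-biased and none was spermatogenic-biased, with a median deposited log2 fold change of -1.79 against 0.12 over all genes. The phosphoinositide-binding gene atg-18 had 27.5 FPKM in fem-3(q96gf) gonads and 109 FPKM in fog-2(q71) gonads. The 2 members in neither class were the protease genes atg-4.1 (-0.90) and atg-4.2 (-0.37) in the authors' deposited table. Of 20 skr genes, which encode Skp1-related ubiquitin ligase subunits, 10 were oogenic-biased and none was spermatogenic-biased. The skr-15 gene had 0.01 FPKM in fem-3(q96gf) gonads and 5.2 FPKM in fog-2(q71) gonads, whereas skr-1 had 192 FPKM in fem-3(q96gf) gonads and 147 FPKM in fog-2(q71) gonads. The F-box family fbxc had members on both sides, with 4 spermatogenic-biased and 17 oogenic-biased of 30.

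On the other side, 13 of 18 neprilysin peptidase genes of the nep family were spermatogenic-biased and none was oogenic-biased. The level of nep-8 was 77.0 FPKM in fem-3(q96gf) gonads and 0.12 FPKM in fog-2(q71) gonads. The twk family of potassium channel genes had 15 of 38 spermatogenic-biased and none oogenic-biased, against 19% and 16.5% of all measured genes. Its median lysate level was 0.67 FPKM. Reads shared between paralogs of these families cannot be told apart. No set test was run on these families.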
